A study of Mus musculus with 35 samples.

Results

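The domains described here are the 1000 longest regions of the deposited H3K4me3 table on chromosomes 1 to 19. They were chosen by length alone, end minus start, from the 12183 rows on these chromosomes and the 12566 rows of the whole table. The study treated mouse embryonic fibroblasts (MEFs) with chemical cocktails, and the samples used here were taken on day 4. Open chromatin was read by ATAC-seq (7 treatments, 2 libraries for each). The histone marks H3K4me3 and H3K27me3 were read by ChIP-seq in 6 of these treatments, 1 library per mark. The cocktail C6FAE holds CHIR99021 (C, a GSK3 inhibitor), Repsox (6, an ALK5 inhibitor), Forskolin (F, which raises cAMP), AM580 (A, a retinoic acid receptor agonist) and EPZ004777 (E, a DOT1L inhibitor). By their names, 6FAE lacks CHIR99021, CFAE lacks Repsox, C6AE lacks Forskolin, and AE holds A and E only. The composition of AE and of Basal is not spelled out in the sources used here. Ctr stands for the ATAC-seq controls. A further H3K4me3 library and its H3K27me3 partner are titled as control but carry the treatment label C6FAE, and were put in no group.

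H3K4me3 is laid down by SET1 and MLL methyltransferases around the start sites of active genes, and most of its regions are short. A minority of promoters carry domains that reach far along the gene body, and such broad domains are known to lie at genes central to the identity of the cell they are found in. H3K27me3, the mark of Polycomb repression, can lie on the same region, a bivalent state typical of developmental regulators. The positions below are of the mouse build mm9. No annotation of that build was used here, so domains are named by position and not by gene.

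The 1000 domains were 6690 to 63155 bp long, with a median of 7864.5 bp, against 3640 bp for the 11183 other rows. They were 8.21% of the rows and held 18.1% of the summed length, and 25% of them were longer than 9386.25 bp. The last domain inside the limit, chr13:102532860-102539550, was 6690 bp long, and the first row outside it, chr19:60861818-60868506, was 6688 bp long. Over the 6 treatments their H3K4me3 ranged from 16.1 RPKM (6FAE) to 45.4 RPKM (C6AE) and from 12.4 RPKM (6FAE) to 25.03 RPKM (C6AE), respectively. RPKM is the read number scaled to the length of the region and to the depth of the library. Chromosome 11 held the most domains (107 of 997 rows, 10.7%), the highest share was on chromosome 17 (11.4%), and the lowest on chromosome 2 (6.35%). A further 5 rows as long lay on other chromosomes and were not members.

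Most domains were unions over treatments. All starts and ends of the domains coincided with a limit of a listed H3K4me3 peak of the 6 treatments or of the library titled as control, which set 1.9% of the starts, but a single peak of 1 library spanned the whole domain in 110 of 1000 domains (11.0%), against 37.2% of the other rows. The left limit came from the CFAE library in 43.6% of the domains, from Basal in 29.1% and from AE in 17.1%, but from C6AE in 0.5%. Listed peaks covered 91.0% of the length of the domains in CFAE, 84.1% in Basal, 83.7% in AE, 73.9% in 6FAE, 70.1% in C6FAE and 59.6% in C6AE. A single peak longer than 6690 bp lay in 411 domains in CFAE, 276 in Basal, 248 in AE, 86 in 6FAE, 73 in C6FAE and 17 in C6AE. Such a peak was found in at least 1 of the 6 libraries for 557 domains, in at least 3 for 157 and in all 6 for 8. The H3K4me3 libraries held 4855116 (CFAE), 7103488 (Basal), 4577367 (AE), 4058499 (6FAE), 3296306 (C6FAE) and 745089 (C6AE) tags. Cover followed the order of tags except in Basal, which had the most tags but less cover than CFAE. In the library titled as control, with 3281444 tags, listed peaks covered 59.9%. The part of depth in the cover was not tested.

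The longest domains had more H3K4me3 than the other rows but less than the rows just below them in length. The median level was 12.9 RPKM in C6FAE, 12.2 in 6FAE, 18.2 in CFAE, 26.0 in C6AE, 21.5 in AE and 20.2 in Basal. In the other rows these medians were 11.4, 11.1, 15.6, 24.8, 18.7 and 17.7 RPKM. On the log2(RPKM + 1) scale the difference was 0.16 ± 0.05 (SD, n = 6 treatments), and it was positive in 6 of 6 treatments (exact sign-flip test, two-sided, p = 0.03125, the smallest that 6 values can give). The same difference from the next 1000 longest rows was -0.031 ± 0.011, negative in 6 of 6 treatments (exact sign-flip test, p = 0.03125). Length itself was set by H3K4me3 peaks of these libraries, so level and length are not independent. The treatments were also read on the same rows. The tests therefore show only that the sign was shared by the treatments, and cannot separate the level from the choice by length. Over classes of 1000 rows by length, the mean over treatments of the median log2(RPKM + 1) rose from 3.70 in class 12 to 4.27 in class 2 and was 4.24 in class 1, the longest. Within the domains length and level were nearly unrelated, with Spearman's rho across domains between -0.10 (AE) and -0.04 (C6FAE), against 0.11 (C6AE) to 0.54 (CFAE) over all 12183 rows. Domains are not independent replicates.

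**Figure D1:**
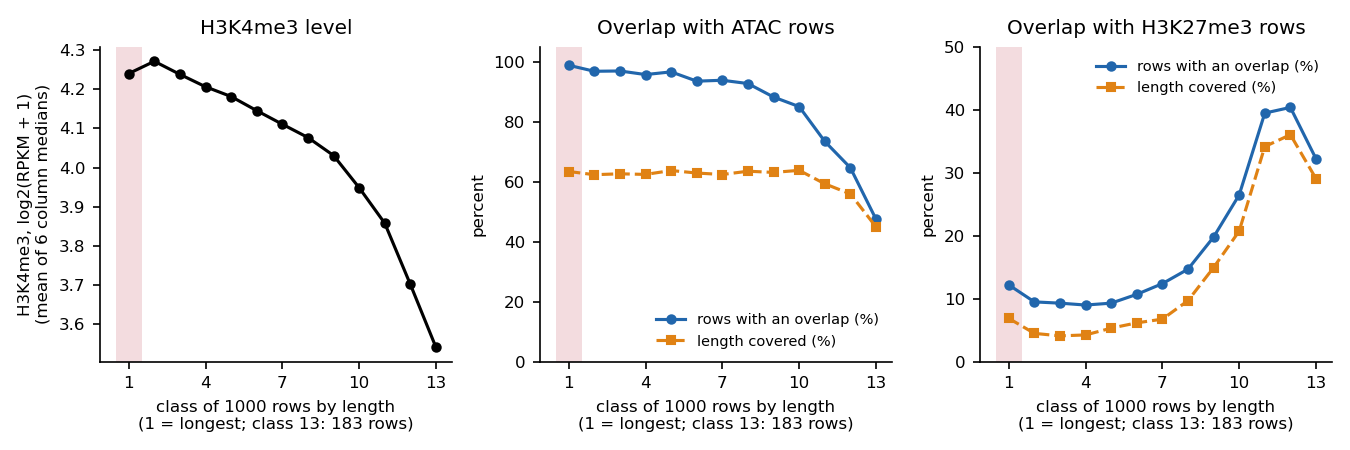
Rows of the H3K4me3 table in classes of 1000 by length (x axis, class 1 the 1000 longest, shaded, and class 13 the shortest, not full), with the mean over 6 treatments of the median log2(RPKM + 1) at left, and the percent of rows with an overlapping ATAC (middle) or H3K27me3 row (right) and the percent of their length covered. The longest class is just under the second in H3K4me3 (4.24 against 4.27) and above the second in H3K27me3 overlap (12.2% against 9.5%), while ATAC cover is about level down to class 10.

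**Figure D2:**
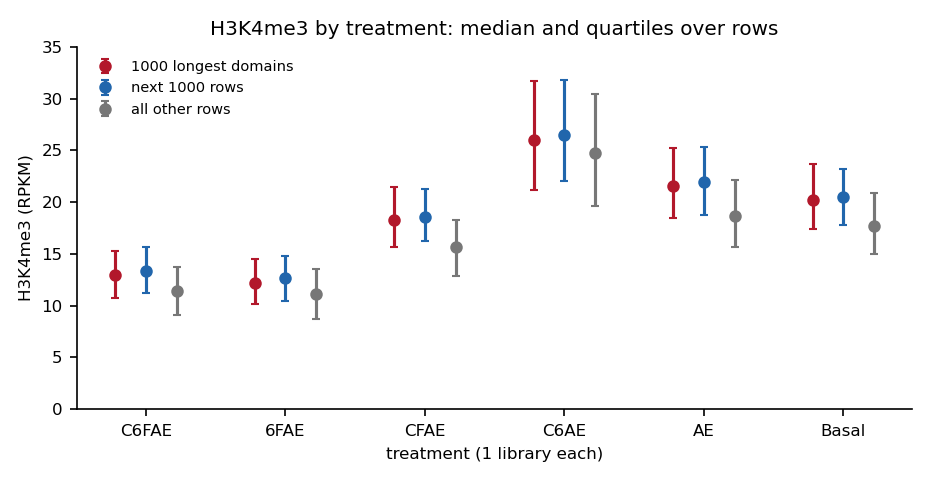
H3K4me3 level in RPKM (y axis) for 6 treatments with 1 library each (x axis), as the median (point) and quartiles (bars) over the 1000 longest domains, the next 1000 rows and all other rows. In each treatment the longest domains lie above all other rows and slightly below the next 1000, and the C6FAE and 6FAE columns are lowest.

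The treatments with Forskolin were the lower ones in most of the domains. All of C6FAE, 6FAE and CFAE lay below all of C6AE, AE and Basal in 686 of the 1000 domains (68.6%) and in 65.0% of the other rows. C6AE was the highest column in 763 domains (76.3%) and in 76.2% of the other rows. The lowest was 6FAE in 615 domains (61.5%, against 50.9% of the other rows) or C6FAE in 369 (36.9%, against 44.7%). The domains differed less between treatments than the other rows did: the range over the 6 columns had a median of 1.11 on the log2 scale against 1.22. The other rows were shorter (median 3640 bp against 7864.5 bp) and hold fewer reads at the same RPKM. The part of length in this was not tested. The excess of the longest domains over the other rows averaged 0.17 in the 3 treatments with Forskolin and 0.15 in the 3 without, a difference of 0.020 (exact permutation test, 3 against 3, two-sided, p = 0.7, where the smallest possible is 0.1).

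Fold changes between treatments were counted at 2-fold on the log2(RPKM + 1) scale, which understates the change of low regions, and with 1 library per treatment they have no replicate check. Against C6AE, H3K4me3 in C6FAE had a median difference of -0.96 over the domains (-1.04 in the other rows), and 458 domains were at least 2-fold lower, 45.8% of them, where the background over all 12566 rows was 53.3%. Against AE the median was -0.72 and 169 domains were lower (background 17.4%). Against Basal it was -0.62 with 106 lower (background 13.3%), and against CFAE -0.48 with 20 lower (background 3.6%). Of the treatments set against C6FAE, 6FAE was nearest, with a median difference of 0.06, 14 domains higher (background 1.87%) and 6 lower (background 0.979%). Between AE and Basal the median was 0.10, with 2 domains higher (background 0.318%). The shares in the domains were near or below the background in each of these comparisons.

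These shifts were shared by the whole table. The median over all 12566 rows was -1.04 for C6FAE against C6AE, -0.69 against AE, -0.61 against Basal and -0.42 against CFAE. Relative to that median, 9 domains were at least 2-fold higher (background 1.49%) and 3 lower (background 3.31%) in C6FAE than in C6AE. Against AE, 11 were higher (background 1.58%) and 15 lower (background 1.57%). Against Basal, 16 were higher (background 2.39%) and 13 lower (background 1.93%). Against CFAE, 1 was higher (background 0.637%) and 2 lower (background 0.446%). The spread of the change was narrower in the domains, with an SD of 0.34 against 0.50 in the other rows for C6FAE against C6AE. The other rows span many lengths, and this median change itself moved with length. It was -0.96 in length classes 1 and 2 and -1.47 in class 12. The part of length in the spread was not tested.

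**Figure D3:**
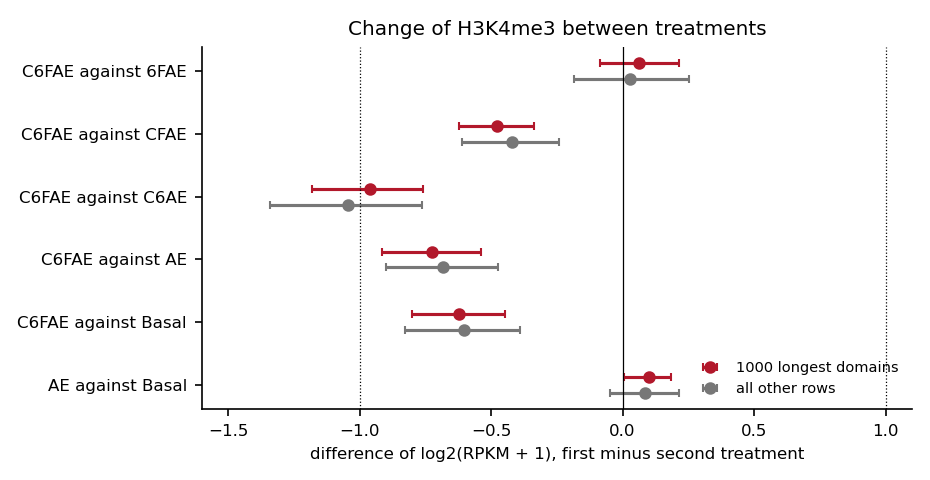
Difference of log2(RPKM + 1) of H3K4me3 between pairs of treatments (x axis, first minus second) as the median (point) and quartiles (bars) over the 1000 longest domains and all other rows, with dotted lines at 2-fold. The medians of both sets lie close together in each pair, from -0.96 against -1.04 for C6FAE against C6AE to 0.10 against 0.09 for AE against Basal, and the quartiles of the domains are closer together.

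A few domains followed CHIR99021 instead, with all treatments named with C on one side of all others by at least 2-fold relative to the median row. They were picked after their values were seen. Of the 1000 domains, 3 were higher with CHIR99021 (background 0.111%) and 1 was lower (background 0.0398%). The domain chr11:108780938-108793977 had 17.5 RPKM in C6FAE, 24.5 in CFAE and 46.2 in C6AE, against 6.55 in 6FAE, 9.81 in AE and 7.58 in Basal. Its groups did not overlap in RPKM as deposited, but the gap then was under 2-fold on the log2(RPKM + 1) scale, as in the other 2 higher domains. An ATAC row covered 80.7% of it, at 26.3 RPKM in C6FAE, 23.0 in CFAE, 16.1 in 6FAE, 13.1 in C6AE, 9.51 in AE, 9.39 in Basal and 9.08 in Ctr. An H3K27me3 row covered 29.3% of it and held 7.87 RPKM in AE and 9.79 in Basal but 0.143 to 1.17 in the other 4 treatments.

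The domain chr8:91043275-91054277 had a like pattern, with H3K4me3 of 15.2 RPKM in C6FAE, 18.97 in CFAE and 33.8 in C6AE, against 5.73 in 6FAE, 7.71 in AE and 5.09 in Basal. Its ATAC rows held 34.7 RPKM in C6FAE, 21.9 in CFAE, 17.8 in 6FAE and 8.66 to 11.4 in the other 4 treatments. An H3K27me3 row covered 75.03% of it, at 7.10 RPKM in AE and 6.09 in Basal and at 1.46 to 3.73 in the others. In both domains the ATAC level of C6AE lay below that of 6FAE, so the ATAC columns were not split by CHIR99021 as those of H3K4me3 were. These ATAC values were not centred. C6AE also had the lowest median over all ATAC rows touching the domains, 17.0 RPKM against 19.1 in 6FAE.

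The last of the 3, chr18:63080515-63090778, had 17.5 RPKM in C6FAE, 20.6 in CFAE and 29.9 in C6AE, against 4.93 in 6FAE, 8.38 in AE and 9.25 in Basal, with no H3K27me3 row. The domain chr2:125859602-125867875 went the other way. It had 2.501 RPKM in C6FAE, 3.41 in CFAE and 4.22 in C6AE, and 17.6 in 6FAE, 16.9 in AE and 21.3 in Basal. In it a listed peak of 6296 bp in 6FAE, 6300 bp in AE and 6190 bp in Basal stood against a longest peak of 543 bp in C6FAE, 930 bp in C6AE and 2221 bp in CFAE. No ATAC row touched it. With 1 library a treatment these patterns have no replicate check, and 3 against 3 values cannot give an exact p under 0.1.

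Splits of any size stood furthest above the background for lower levels with Repsox. Relative to the median row, 167 domains were lower in all treatments named with 6 than in all others (background 7.94%) and 20 higher (background 4.9%). For Forskolin 124 were higher (background 7.22%) and 93 lower (background 7.7%), and for CHIR99021 81 were higher (background 8.65%) and 87 lower (background 9.37%). None of the domains split by 2-fold for Repsox or Forskolin. The choice by length is not independent of the Repsox split. The left limit came from CFAE, Basal or AE, all without Repsox, in 43.6%, 29.1% and 17.1% of the domains. It came from 6FAE, C6FAE or C6AE, all with Repsox, in 5.0%, 3.6% and 0.5%. The H3K4me3 libraries with Repsox were also the shallowest (4058499, 3296306 and 745089 tags). The part of either in the split was not tested.

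The 10 longest domains were uneven in kind. The longest, chr11:3042405-3105560, had 22.6 to 27.7 RPKM of H3K4me3 in the 6 treatments, and its ATAC row held 170 to 194 RPKM in the 7 treatments. Of all domains, 2 more at the assembled start of chromosome 9 had a like ATAC level. In chr9:3013713-3030622 H3K4me3 was 23.8 to 38.5 RPKM and ATAC 168 to 211 RPKM, and in chr9:2999909-3007389 they were 22.8 to 38.6 and 159 to 213 RPKM. These 3 had enriched H3K27me3 peaks in 6 of 6 treatments and enriched ATAC peaks in 14 of 14 libraries, where enriched means a listed -log10 q of at least 1.3. Among the domains at or above the lower quartile of mean RPKM, they were the top 3 by rise in C6FAE against C6AE, at 0.26, 0.53 and 0.71 on the log2 scale. The next in that ranking, chr2:77779506-77787411 and chr19:8794282-8801772, were at -0.16 and -0.21.

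The domain chr8:74193392-74212402, 19010 bp long, stood apart by level. It had 200.3 RPKM in C6FAE, 157 in 6FAE, 364 in CFAE, 1074 in C6AE, 627 in AE and 498 in Basal, and the next highest mean of a domain was 34.1 RPKM. Its H3K27me3 row held 81.4 RPKM (CFAE) to 246 RPKM (C6AE), while its ATAC rows were unremarkable at 13.0 to 19.2 RPKM. It was also the domain of largest fall from C6AE to C6FAE, among those at or above the lower quartile, at -2.42 on the log2 scale. These 4 domains and chr15:76538659-76547897 were those with an enriched H3K27me3 peak in a library with Forskolin. Leaving out these 5 domains left the difference in level at 0.16 with p = 0.03125 (exact sign-flip test).

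The longest after chr11:3042405-3105560, chr6:52148243-52191040 and chr11:96152995-96182634, carried both marks. In chr6:52148243-52191040, 42797 bp long, H3K4me3 was 24.0 RPKM in C6AE, 20.3 in AE, 17.2 in Basal, 12.4 in CFAE, 10.9 in 6FAE and 8.68 in C6FAE. It was close to a single block in Basal and AE, where 1 peak reached 36942 bp and 32106 bp, and was broken into 28 listed peaks in C6AE, the longest of 5850 bp, and 27 in C6FAE, the longest of 6992 bp. In 6FAE and CFAE there were 17 and 13 peaks. H3K27me3 rows covered 75.9% of it, at 14.7 RPKM in Basal, 13.8 in 6FAE, 12.6 in AE, 7.17 in CFAE, 6.95 in C6AE and 5.96 in C6FAE. ATAC rows covered 43.1% of it, at 22.4 RPKM in C6FAE, the highest, and 12.4 in Ctr, the lowest. In it both marks were lowest and ATAC highest in C6FAE. Much of this order was shared by the domains as a set. Over the rows touching them, the median of ATAC was also highest and that of H3K27me3 lowest in C6FAE. The median H3K4me3 level of the domains was lowest in 6FAE.

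In chr11:96152995-96182634, 29639 bp long, H3K4me3 was 22.3 RPKM in C6AE, 17.4 in AE, 15.8 in Basal, 13.2 in CFAE, 10.9 in C6FAE and 8.01 in 6FAE. Its H3K27me3 row covered 73.5% of it and held 13.3 RPKM in 6FAE, 12.0 in Basal, 9.69 in AE, 5.31 in CFAE, 4.69 in C6AE and 3.27 in C6FAE. ATAC rows covered 27.6% of it, at 25.7 RPKM in C6FAE, 17.7 in CFAE and 10.2 to 14.4 in the other 5 treatments. The same H3K27me3 row covered all of its neighbour chr11:96142301-96151072, a domain of 8771 bp with no ATAC row. The 6FAE library of H3K27me3 held only 633980 tags, against 2876197 to 6392309 in the other 5 treatments, so its values are the least precise.

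The other 6 of the 10 longest had little or no H3K27me3. In chr2:115879533-115903156 H3K4me3 was 13.5 (6FAE) to 41.9 RPKM (C6AE), and in chr17:27069271-27091302 it was 8.24 (6FAE) to 17.1 RPKM (Basal). The domains chr7:77494068-77515410, chr10:79598362-79618976, chr14:21512643-21530726 and chr11:116700191-116717823 had H3K27me3 cover of 0.811%, 2.45%, 0 and 4.73%. Their H3K4me3 was lowest in 6FAE and highest in C6AE in each. ATAC rows covered 93.2% of chr10:79598362-79618976 but 21.2% of chr7:77494068-77515410. Among the domains with a mean level at or above the lower quartile, the largest falls in C6FAE against C6AE after chr8:74193392-74212402 were chr1:155584591-155592246 (-2.12), chr4:140854717-140861788 (-2.01), chr4:154006168-154013906 (-1.93) and chr2:148227966-148234850 (-1.92).

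Open chromatin touched nearly all of the domains. An ATAC row overlapped 989 of 1000 domains by at least 1 bp (98.9%, 95% Wilson interval 98.0 to 99.4%), 88.3% of the other rows and 96.9% of the next 1000. The interval covers only the number of regions. A longer row has more room for an overlap, and the covered length was nearly the same, 63.5% in the domains and 62.5% in the other rows. A single ATAC row was found in 791 domains, 2 in 184 and 3 or more in 14, while 0.733% of the other rows had 2 or more. Cover fell from 76.2% at the centre of the domains to 34.4% at the edge. In the next 1000 rows the centre had 86.6%. Outside, at 4500 to 5000 bp from the edge, ATAC rows covered 9.83% beside the domains, 7.56% beside the next 1000 and 5.50% beside all other rows.

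**Figure D4:**
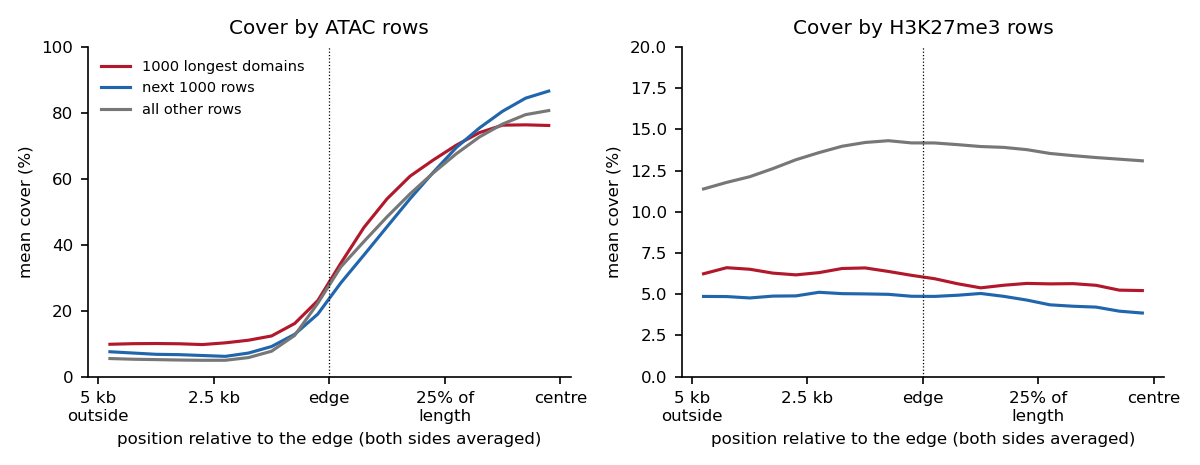
Mean percent of bases covered by ATAC rows (left) and H3K27me3 rows (right) from 5000 bp outside the edge to the centre of H3K4me3 rows (x axis, both sides averaged, inside in bins of 5% of the length), for the 1000 longest domains, the next 1000 rows and all other rows. ATAC cover of the longest domains flattens at 76.2% near the centre, below the next 1000 rows at 86.6%, and H3K27me3 cover is nearly flat across the edge.

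The highest H3K4me3 peak also lay farther from the middle. Its summit was a median of 1145 bp from the centre of the domain in C6FAE and 1093.5 bp in AE, against 317.5 and 282 bp in the other rows. In units of length it was at 35.9% and 36.6% from the nearer edge, against 40.0% and 41.0%. The summits of the 6 treatments lay within 1000 bp of each other in 460 of 1000 domains (46.0%) and in 82.6% of the other rows with a summit in each. A fixed distance is easier to keep in short rows. The median spread of the summits was 1117 bp in the domains against 552 bp. As a share of length it was smaller in the domains, 13.5% against 16.6%.

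In the peak lists of single libraries the domains held fewer ATAC peaks per kb but a larger covered share. Enriched ATAC peaks covered 36.0% of their length in the first C6FAE library and 17.8% in the second, against 32.0% and 14.8% in the other rows. In Ctr they covered 6.98% and 5.92%, against 6.84% and 5.04%. The covered percentage was higher in the domains in 14 of 14 libraries, by 1.85 ± 0.953 percentage points (SD, n = 7 treatments; exact sign-flip test, two-sided, p = 0.015625, the smallest that 7 values can give). The smallest difference in cover was 0.144 percentage points, in the first Ctr library, against 0.734 or more in the other libraries. In that Ctr library, enriched peaks with a -log10 q of at least 5 lay in 1 domain only. They covered 0.643% of the summed length of the domains, more than the difference. In the second C6AE library such peaks also lay in 1 domain and covered 0.643%, against a difference of 0.734 percentage points. In the second Ctr library they lay in 2 domains and covered 0.656%, against a difference of 0.876. Neither the cover by enriched peaks nor its test was recomputed without the 5 domains left out above. Whether the sign in 14 of 14 libraries holds without such domains was not tested. The number of enriched peaks per kb was lower in the domains in 14 of 14 libraries, by 0.51 ± 0.06 on the log2 scale over treatments (exact sign-flip test, p = 0.015625). The next 1000 rows also had more covered length than all other rows in 14 of 14 libraries. Their cover was above that of the domains in 3 of 14, namely the first AE library (16.7% against 16.3%) and both Ctr libraries (7.27% against 6.98% and 6.79% against 5.92%). A peak that crosses the edge of a row counts whole, which adds more per kb to short rows. At least 1 enriched peak lay in 853 domains in the first C6FAE library (85.3%, against 65.4% of the other rows). In the second C6AE library this held for 95 domains (9.5%, against 5.42% of the other rows). The latter library had 3346418 tags against 7800792.

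**Figure D5:**
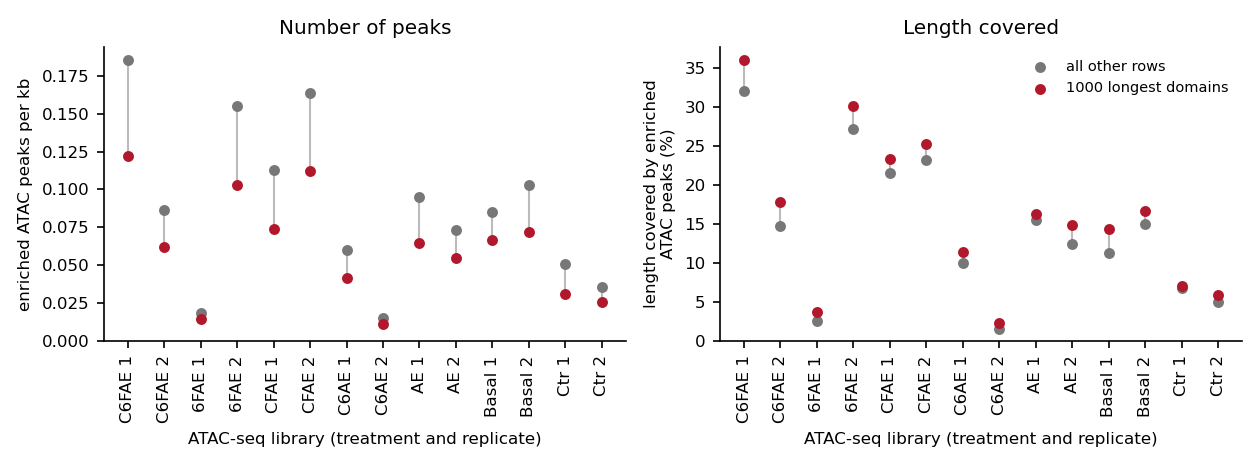
Number of enriched ATAC peaks per kb (left) and percent of length they cover (right) in each of the 14 ATAC-seq libraries (x axis), for the 1000 longest domains and all other H3K4me3 rows, with a line joining both values of a library. The domains lie below the other rows in number and above them in covered length in 14 of 14 libraries.

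Fewer ATAC rows inside the domains than outside H3K4me3 changed by 2-fold between treatments, while the median change was not smaller in each comparison. The 1199 ATAC rows that touched a domain had medians of 24.6 RPKM in C6FAE, 24.4 in CFAE, 22.7 in AE, 19.2 in Basal, 19.1 in 6FAE, 17.5 in Ctr and 17.0 in C6AE. From Ctr to C6FAE, 112 of them were at least 2-fold higher, 9.34%, where the background over all 36431 ATAC rows was 25.1%, and 2 were lower (background 4.42%). Of the ATAC rows in other H3K4me3 rows 11.3% were higher, and of those outside 31.3%. The rows outside were shorter (median 1088 bp against 4572 bp in the domains) and lower (14.8 against 24.6 RPKM in C6FAE). The part of length and level in these shares was not tested. The median change was 0.48 on the log2 scale in the domains and 0.54 outside. From C6AE to C6FAE, 80 were higher, 6.67% (background 18.5%), with a median change of 0.53 in the domains and 0.45 outside. These columns were merged over both libraries by the authors and have no replicate check.

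H3K27me3 was found on few of the domains. An H3K27me3 row overlapped 122 of 1000 (12.2%, 95% Wilson interval 10.3 to 14.4%), against 18.5% of the other rows but 9.5% of the next 1000. Over the length classes the share was lowest in class 4 (9.0%) and highest in class 12 (40.4%), so the 1000 longest lay above the classes just below them in length and under those of short rows. H3K27me3 rows covered 6.88% of the length of the domains, 4.50% in the next 1000 and 9.28% in the other rows. Of the domains, 52 (5.2%) were covered by 50% or more, against 12.9% of the other rows and 3.9% of the next 1000. The 52 included chr8:74193392-74212402 and the domains of high ATAC level named above. The domains with the most covered bases, after chr11:3042405-3105560, chr6:52148243-52191040, chr11:96152995-96182634 and chr9:3013713-3030622, included chr13:31892440-31907037, with 86.3% covered and H3K4me3 of 5.72 (C6FAE) to 17.2 RPKM (C6AE).

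The domains covered by H3K27me3 by 50% or more had less H3K4me3 in 5 of 6 treatments than the 878 with none. The medians were 8.93 against 12.4 RPKM in 6FAE, 11.3 against 13.0 in C6FAE, 15.4 against 18.6 in CFAE, 17.0 against 21.99 in AE and 15.5 against 20.6 in Basal, but 26.6 against 26.2 in C6AE. From C6AE to C6FAE their H3K4me3 had a median difference of -1.28 on the log2 scale (SD 0.56 over 52 domains), against -0.95 (SD 0.33) in the 878 domains with none. In the other rows the same medians were -1.50 and -0.99. Their H3K4me3 was also lower with such cover than with none in 5 of 6 treatments. In Basal its medians were 11.7 against 18.5 RPKM, but in C6AE 29.3 against 24.2. ATAC rows covered 54.6% of the length of the 52 domains, against 64.3% without H3K27me3, and 44.0% against 64.6% in the other rows. Of the 11 domains with no ATAC row, 3 were fully under H3K27me3, namely chr11:96142301-96151072, chr5:120279709-120287732 and chr11:11932463-11939810.

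The lists of H3K27me3 peaks differed between treatments with and without Forskolin. Enriched H3K27me3 peaks lay in 73 domains in AE, 67 in Basal and 73 in C6AE (7.3%, 6.7% and 7.3%), against 11.6%, 10.3% and 13.3% of the other rows. In the libraries with Forskolin they lay in 4 domains in C6FAE, 4 in CFAE and 5 in 6FAE, and the whole lists held only 82, 136 and 74 enriched peaks, so the number was low in the whole lists. An enriched peak was found without Forskolin and not with it in 93 domains (9.3%) and in 16.1% of the other rows. Per kb the domains had fewer enriched peaks than the other rows without Forskolin, with log2 ratios of -1.84 in AE, -1.74 in Basal and -1.88 in C6AE, but 0.77, -0.40 and 0.04 in 6FAE, C6FAE and CFAE from 6 to 7 peaks each. Over the 6 treatments this gave -0.84 ± 1.13 (exact sign-flip test, p = 0.1875). With all listed peaks it was lower in 6 of 6 treatments, at -0.86 ± 0.40 (exact sign-flip test, p = 0.03125). A peak that crosses the edge of a row counts whole here too, which adds more per kb to short rows. The part of row length in these ratios was not tested. By covered length, enriched peaks differed by -1.33 percentage points in AE, -1.35 in Basal and -2.46 in C6AE. In 6FAE, C6FAE and CFAE they differed by 0.129, 0.916 and 0.883. For all listed peaks the mean difference in covered length was -3.04 percentage points. Without the 5 domains that held the enriched peaks of the libraries with Forskolin, only the 3 treatments without it gave a ratio, and its mean was -1.97. By H3K27me3 rows, not the peaks of single libraries, the difference in covered length from the other rows was -2.40 percentage points with these 5 and -3.40 without them.

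Inside the domains the H3K27me3 rows, 139 in number, had medians of 7.95 RPKM in Basal, 6.46 in AE, 6.11 in 6FAE, 4.88 in C6AE, 3.85 in CFAE and 3.39 in C6FAE. Those in other H3K4me3 rows had 7.32, 6.53, 4.95, 5.64, 3.74 and 3.26 RPKM. The order of the treatments was that of C6FAE and CFAE lowest and Basal highest in both.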

How the data were processed

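ATAC-seq and ChIP-seq samples of day 4 were grouped by the treatment in their labels. The submitters' processing notes list Bowtie2, MACS2, deepTools 3.1.0 and mm9. Per the file headers, the authors ran MACS 2.1.2 on single libraries at p 0.05, without local background, with tags extended to 250 bp, broad for ATAC-seq and H3K27me3, narrow for H3K4me3, and with input for ChIP-seq. The deposited lists give −log10 p and q, fold enrichment over background and the pileup signal. The headers say that q was not calculated, yet the column holds values, used as listed. The deposited tables give RPKM, normalized by the authors from reads per bin, with 1 library per ChIP-seq column and ATAC-seq libraries merged. How rows were chosen and bins combined is not given in the sources used here.

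Depth was 633980 to 7103488 tags for ChIP-seq, inputs aside, and 3346418 to 8764791 for ATAC-seq. Domains were ranked by length, with ties by chromosome and start. Levels were compared as log2(RPKM + 1), and regions at 2-fold. Overlap meant at least 1 bp, and an ATAC or H3K27me3 row on several H3K4me3 rows was given to the longest. Treatments, not regions, were the units of the exact tests, 2 ATAC-seq libraries being averaged first. Whether the libraries come from separate cultures is stated only for 2 ATAC-seq treatments. Intervals cover counting error only. The domains, lists and tests were chosen with earlier results of these data known. Named were the 10 longest domains, the 5 largest rises and falls in C6FAE against C6AE among domains at or above the lower quartile of mean RPKM, the 5 with most H3K27me3 cover, and those at the limit. The splits by CHIR99021, Repsox and Forskolin were added after seeing the data, as were leaving out 5 domains or the C6AE column and the covered length as a measure. Gene lists and cell type markers were planned, but no mm9 annotation was used here, so neither was run. Interval and test functions were tested on simulated data. Tables were handled in Python 3.11.15 (pandas 2.3.3, numpy 2.4.6), tests run in scipy 1.17.1, and plots drawn in matplotlib 3.10.9.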

Additional observations from a re-analysis of the deposited data

Results flagged for a closer look

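The H3K4me3 library titled as control, whose treatment label is C6FAE, was in no treatment group. Taken as a seventh column, it left the difference in level between the domains and the other rows at 0.14 (exact sign-flip test, p = 0.015625, n = 7). In chr8:74193392-74212402 it had 5214 RPKM, above the highest of the 6 treatments (1074 in C6AE). This was 1 of 1000 domains in which it had at least 2 times the highest level of the 6 treatments. Its median over the domains was 24.4 RPKM, between AE and C6AE.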

How the results depend on the processing

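Of 149 values recomputed under other settings, 88 kept their direction and their side of the threshold, or stayed near the value given. Against the next 1000 rows the difference in H3K4me3 turned to -0.031, that of the share with H3K27me3 to 2.7 percentage points, its covered length to 2.39, the share with ATAC to 2.0, the H3K27me3 peak density to 0.18 and the Forskolin difference to -0.012. With 500 or 2000 longest rows the H3K27me3 share differed by -3.33 or -8.55 points. Requiring 50% of a row inside gave 2.27 points for H3K27me3 and 15.4 for ATAC. Leaving out the shallow C6AE column gave 0.17 (p = 0.0625, the smallest 5 values allow, exact sign-flip test) and a Forskolin difference of -0.019. By covered length in place of number, ATAC peaks turned to 1.85 points. Enriched H3K27me3 peaks gave -0.54 points (exact sign-flip test, p = 0.375). All listed H3K27me3 peaks gave -3.04 points (exact sign-flip test, p = 0.03125), the same p as their log2 density of -0.86.

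Centring the columns left 0.3% of domains 2-fold lower than C6AE, 1.5% than AE, 1.4% than Basal and 0.2% than CFAE, 0.9% higher than 6FAE and 0 for AE against Basal, and turned the median against C6AE to 0.090. At 1.5-fold these were 89.3%, 69.1%, 56.7%, 31.7%, 4.5% and 0.9%. A pseudocount of 10 gave 8.0%, 1.7%, 1.1%, 0, 0 and 0, and one of 0.1 gave 3.6% for CFAE. For AE against Basal, 500 rows gave 0, 2000 rows 0.1% and the filter on low RPKM 0.111%. The 3 domains higher with CHIR99021 were 0 without centring and 0 with a pseudocount of 10, and the 1 lower was 2 with 0.1 and 0 with 10. Without replicate 1 or 2 the log2 ATAC density was -0.50 or -0.53. No paired analysis was possible because replicate numbers exist only for ATAC-seq, whose treatments were not tested against each other. Depth limits C6AE H3K4me3 and 6FAE H3K27me3 most.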
